A study of Mus musculus with 4 samples.

Results

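Zinc finger genes of the mouse whose symbol is Zfp followed only by digits were followed through gene lists from a Foxp1 chromatin immunoprecipitation (ChIP-seq) study of newborn kidney. Members were chosen by symbol in the control and Foxp1KspKO ChIP lists, leaving out Zfp36, which encodes an mRNA decay factor. The union held 173 of the 8666 genes in either list, 148 of 6799 in the control list and 87 of 4953 in the knockout list. The study compared kidney tubular cells of neonatal littermate controls with those of Foxp1KspKO mice, and had 1 ChIP and 1 input library per genotype. The Ksp in the knockout's name refers to Ksp-cadherin, a gene of the renal tubule epithelium whose promoter drives Cre recombinase there, so the deletion is directed to that epithelium and not to every cell of the kidney. The labels do not state the alleles of the controls, the age in days or any pooling of animals. The labels' antibody field gives rabbit IgG to the control ChIP and a polyclonal against Foxp1 to the other ChIP, although both descriptions begin with FoxP1. Libraries are therefore named control and knockout (Foxp1KspKO) by the genotype in their titles, and the direction of every comparison rests on that. With 1 library per group no test over samples was possible, and every value below describes the deposited lists.

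Zinc finger proteins of this kind bind DNA or RNA through small folds that each hold a zinc ion. Many mouse members carry a KRAB domain, which recruits the corepressor Trim28 and the histone methyltransferase Setdb1 to silence chromatin, retroviral elements above all. KRAB zinc finger genes arose by repeated local duplication and lie in tandem clusters of related copies, while other zinc finger genes stand alone and act in development. The label rests on symbols, since protein sequences were not used here. The lists hold a single p-value from the authors for each gene, with no position, direction or read count, so depth is unknown and tissue markers could not be checked. A p-value below is always that deposited value.

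The numbered Zfp genes were listed more often than protein-coding genes as a whole in the control ChIP, and about as often in the knockout ChIP. Of the 366 protein-coding numbered Zfp genes in the RefSeq gene table, 146 (39.9%, 95% exact binomial interval 34.8 to 45.1) were in the control list, against 29.0% of all 21900 protein-coding genes. The knockout list held 85 (23.2%, 18.99 to 27.9), against 20.9%. The authors' unique control list held 80 (21.9%, 17.7 to 26.4), against 15.1%, and 196 of the 366 genes were in neither ChIP list. Intervals cover counting error only, and neighbouring genes are not independent.

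Promoters are shown for pairs of near-copies and for single genes among the members with low p-values. The windows are the 250 bases before 1 annotated transcript start, from RefSeq on GRCm38.p6, and 142 of the 173 members matched one. A window can therefore lie within the span of its gene, as for Zfp997, Zfp984 and Zfp467. The window of Zfp551 lies almost wholly within its gene, and that of Zfp268 in part. The first pair are related genes on chromosome 13 with the lowest p-values of any members in the knockout list, at chr13:66113203-66113452, plus strand and at chr13:66441119-66441368, minus strand. Capitals mark their longest identical stretch, 37 bases, and the windows were identical at 223 of 241 aligned bases (92.5%).
Zfp997: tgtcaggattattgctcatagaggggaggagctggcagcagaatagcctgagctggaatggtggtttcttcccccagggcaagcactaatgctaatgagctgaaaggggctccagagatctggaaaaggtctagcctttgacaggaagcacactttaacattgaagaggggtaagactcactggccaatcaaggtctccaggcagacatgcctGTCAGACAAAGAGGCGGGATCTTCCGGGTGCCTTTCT
Zfp998: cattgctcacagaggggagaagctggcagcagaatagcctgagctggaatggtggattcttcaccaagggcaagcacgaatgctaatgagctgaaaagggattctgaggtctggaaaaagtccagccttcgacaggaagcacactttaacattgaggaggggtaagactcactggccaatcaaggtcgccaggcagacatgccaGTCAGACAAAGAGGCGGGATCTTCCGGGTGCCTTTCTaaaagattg

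The second pair stood in the control list alone and belong to a family on chromosome 4, at chr4:145584950-145585199, plus strand and at chr4:147809789-147810038, minus strand. Their longest identical stretch, in capitals, is 66 bases, and 227 of 235 aligned bases (96.6%) were identical.
Zfp268: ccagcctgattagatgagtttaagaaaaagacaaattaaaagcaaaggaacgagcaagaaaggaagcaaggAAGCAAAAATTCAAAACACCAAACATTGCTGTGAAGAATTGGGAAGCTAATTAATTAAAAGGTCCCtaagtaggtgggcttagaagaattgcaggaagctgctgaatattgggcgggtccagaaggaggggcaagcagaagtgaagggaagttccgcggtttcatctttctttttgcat
Zfp984: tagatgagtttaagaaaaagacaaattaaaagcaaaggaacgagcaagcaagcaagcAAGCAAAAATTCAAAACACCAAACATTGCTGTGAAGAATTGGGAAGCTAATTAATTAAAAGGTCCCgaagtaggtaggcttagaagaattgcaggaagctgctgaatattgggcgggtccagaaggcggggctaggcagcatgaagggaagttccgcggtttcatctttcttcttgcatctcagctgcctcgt

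The last set are windows with no identical 50-base stretch in any other, non-overlapping promoter of the table. Zfp503 (chr14:21989602-21989851, minus strand) and Zfp467 (chr6:48445091-48445340, minus strand) are among the members with the lowest control p-values. Zfp551 (chr7:12422492-12422741, minus strand) was the one member whose window held both forkhead motifs searched, TGTTTAC and TATTTGT, shown in capitals.
Zfp503: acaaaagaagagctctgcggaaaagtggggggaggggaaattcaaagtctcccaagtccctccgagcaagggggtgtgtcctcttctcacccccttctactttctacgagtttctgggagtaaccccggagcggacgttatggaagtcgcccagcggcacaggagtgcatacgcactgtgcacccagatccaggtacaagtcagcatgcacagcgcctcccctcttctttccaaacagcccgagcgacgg
Zfp467: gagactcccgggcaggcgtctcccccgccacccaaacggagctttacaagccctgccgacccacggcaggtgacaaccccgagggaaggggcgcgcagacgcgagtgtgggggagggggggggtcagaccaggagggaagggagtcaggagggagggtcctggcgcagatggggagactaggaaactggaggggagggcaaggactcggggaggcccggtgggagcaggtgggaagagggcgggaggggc
Zfp551: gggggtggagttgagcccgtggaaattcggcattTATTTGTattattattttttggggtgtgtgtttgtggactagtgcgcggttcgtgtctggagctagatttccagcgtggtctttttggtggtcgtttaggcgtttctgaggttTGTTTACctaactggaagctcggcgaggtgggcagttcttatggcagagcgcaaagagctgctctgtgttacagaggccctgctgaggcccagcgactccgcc

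The control list alone held 86 members, the knockout list alone 25, and 62 were shared. The 62 are 41.9% of the control members and 71.3% of the knockout members, where the same shares over all protein-coding genes were 45.7% and 63.4%. Control-alone members outnumbered knockout-alone members 3.44 to 1, while the corresponding shares of all protein-coding genes were 15.7% and 7.63%. Of the 62 shared members 43 (69.4%, 56.3 to 80.4) had a smaller p-value with control chromatin, against 72.2% of all shared protein-coding genes. The median −log10 p was 2.87 for control members and 2.21 for knockout members, near the 2.94 and 2.27 of all listed genes. Of the control members 71 (48.0%) had a p-value under 0.001, against 49.2% of listed protein-coding genes and 14.3% of all protein-coding genes. Of the knockout members 29 (33.3%) did, against 31.7% and 6.62%.

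**Figure D1:**
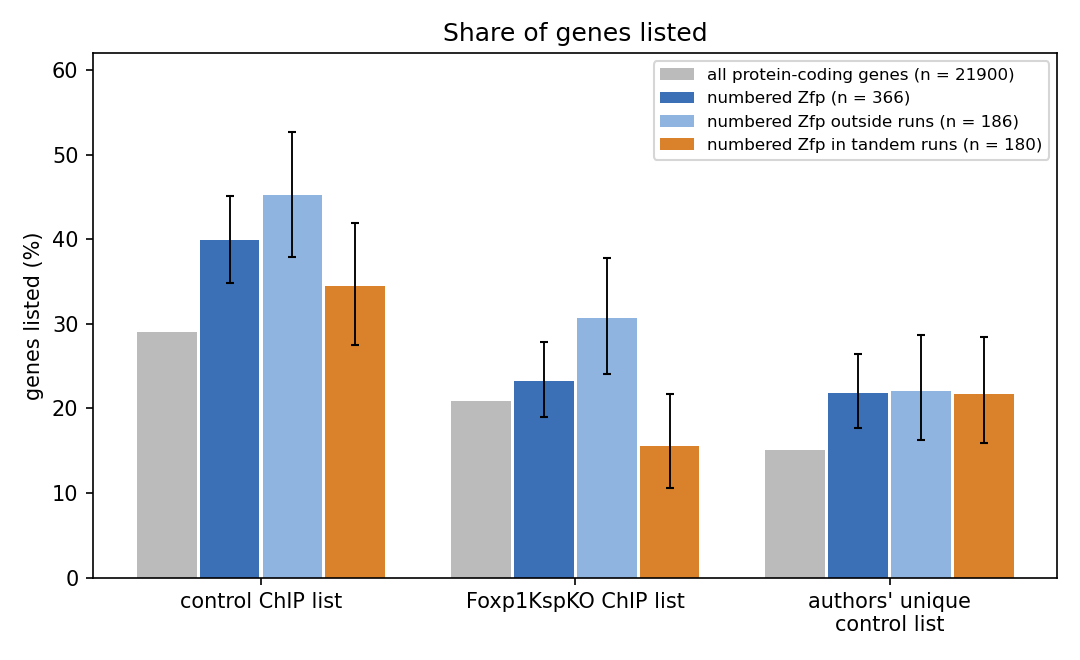
Share of genes listed (y axis, %) in the control list, the knockout list and the authors' unique control list, for all protein-coding genes and for numbered Zfp genes in all, outside and in tandem runs. Error bars are 95% exact binomial intervals; numbered Zfp genes in runs stood at 34.4% in the control list and 15.6% in the knockout list.

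Zfp516 (chr18:82909688-83005314), a partner of the CtBP corepressor that promotes brown fat, had 4.18e-35 for the control and 1.67e-10 in the knockout ChIP of the authors' deposited table. Zfp608 (chr18:54888045-54992591), the paralogue of a factor that works with the cohesin loader in cortical progenitors, had 6.40e-35 and 5.79e-10 in the authors' deposited table. Zfp503 (chr14:21983959-21989601), a repressor of the NET family that acts in eye and forebrain development, had 2.94e-27 and 9.63e-08 in the authors' deposited table. These 3 had the lowest control p-values of all members, and each was also in the knockout list with a higher p-value. Zfp703 (chr8:26977336-26981462), the relative of Zfp503 whose human counterpart is a breast cancer oncogene, had 1.63e-15 and 0.00298 in the authors' deposited table.

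Zfp532 (chr18:65580230-65689443) had the lowest p-value of any member found in the control list only, 6.11e-19 in the authors' deposited table. In human cells its product joins those of the counterparts of Zfp592 and Zfp687 in 1 complex, and both of these genes, named after their values were seen, were control-only as well, with 0.0161 and 7.27e-04 in the authors' deposited table. Zfp467 (chr6:48427692-48445992), which steers marrow progenitors between bone and fat, had 2.23e-16 for the control and 0.0130 in the knockout ChIP of the authors' deposited table. The remaining members with the 10 lowest control p-values were Zfp697, Zfp268, Zfp462 and Zfp300. Per the authors' deposited table they had 1.78e-12, 4.99e-12, 7.30e-12 and 3.24e-11 in the control ChIP. In the knockout ChIP Zfp268 was not listed, and Zfp697, Zfp462 and Zfp300 had 1.85e-08, 0.00324 and 0.00232 in the authors' deposited table.

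Control p-values under 1e-10 were listed for 12 of the 148 members (8.11%), against 7.65% of the listed and 2.21% of all protein-coding genes. In the knockout list 3 of 87 (3.45%, 0.717 to 9.75) were that low, against 1.14% of the listed and 0.237% of all protein-coding genes. These 3 were Zfp997, Zfp998 and Zfp286, and each had a far weaker control value or none. Zfp997 (chr13:66110374-66123709) had 4.79e-24 in the knockout ChIP and was absent from the control list, per the authors' deposited table. Zfp998 (chr13:66418114-66441118) lies 294 kb away and had 1.25e-14 in the knockout ChIP and 0.0154 in the control ChIP, per the authors' deposited table. Zfp286 (chr11:62751951-62789506) had 1.43e-12 and 0.00765 in the same order in the authors' deposited table. The gene table carries Zfp997 as Gm10324 and Zfp998 as 2410141K09Rik, and their promoters, printed above, hold 50-base stretches identical to those of 2 and 5 other genes. The part of such copies in their values was not tested.

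After Zfp997, the lowest knockout p-values among members absent from the control list belonged to Zfp277, Zfp786, Zfp758 and Zfp267. Zfp277 (chr12:40315046-40445790), a repressor of the cell cycle inhibitor locus Cdkn2a that acts with a Polycomb protein, had 1.39e-07 in the authors' deposited table. The values of Zfp786, Zfp758 and Zfp267 in the authors' deposited table were 2.22e-06, 5.28e-05 and 1.01e-04. The 25 knockout-alone members had a median p of 0.00862. The 86 control-alone members had a median control p of 0.00612, while the 62 shared members had 6.50e-05 for the control and 0.00439 in the knockout ChIP.

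**Figure D2:**
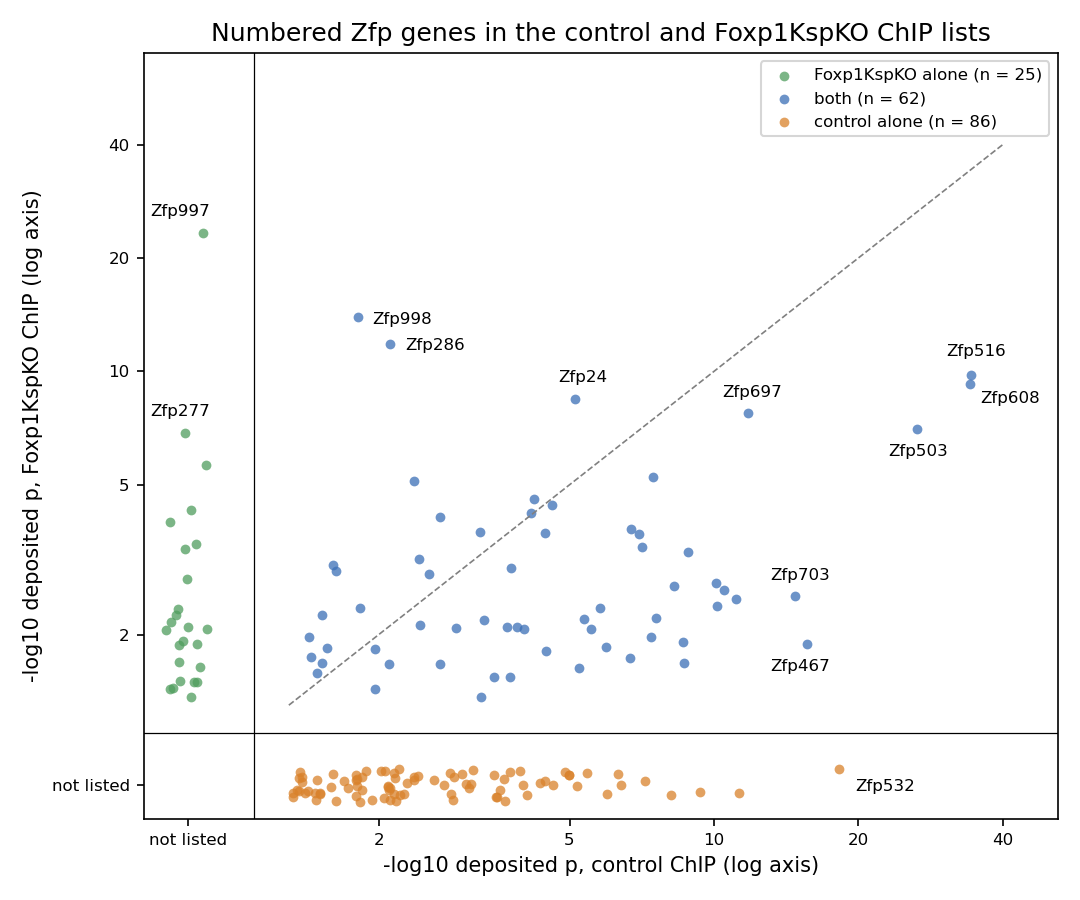
Deposited −log10 p of the 173 members in the control ChIP (x axis) and the knockout ChIP (y axis), both on log axes, with members missing from a list placed in the margins (jittered). Of the 62 shared members 43 lie below the dashed line of equal p; Zfp997, Zfp998 and Zfp286 stand apart at the upper left.

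The share of control members that the knockout list also held was highest for the lowest control p-values. It was 21 of the 28 members with a control p under 1e-06, 46.5% of the 43 from 1e-06 to 0.001, 25.7% of the 35 from 0.001 to 0.01 and 28.6% of the 42 from 0.01 to 0.05. Over all protein-coding genes the shares were 72.8%, 50.1%, 36.2% and 29.9% in the same order. Each of these shares lay within the members' interval, which for the 35 members ran from 12.5% to 43.3%. Across the 62 shared members the p-values of the libraries ranked with a Spearman rho of 0.28, given as a description of genes that share both libraries.

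Members of known role were taken from a list of 37 genes, of which 24 (64.9%) were control-listed and 15 (40.5%) in the knockout list, beside 29.0% and 20.9% of all protein-coding genes. All 15 were in both lists, 10 of the 24 were in the unique list, and 13 of the 37 were in neither ChIP list. The list was drawn up with earlier results of these data known, which holds for the groups below as its parts. Their counts stand beside the same 29.0% and 20.9% of all protein-coding genes. The list's median −log10 p was 5.39 for the control and 2.49 in the knockout ChIP, beside 2.94 and 2.27 for all listed genes.

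Of 8 developmental cofactors 6 were control-listed and 5 in the knockout list. Besides Zfp503 and Zfp703 they included Zfp521 and Zfp423, related partners of the Ebf transcription factors. Zfp521, which acts in blood and fat progenitors, had 4.37e-10 for the control and was not in the knockout list of the authors' deposited table. Zfp423, whose human counterpart is mutated in a ciliopathy that causes cystic kidney disease, had 5.33e-09 and 0.00203 in the authors' deposited table. Zfp219, a partner of Sox9 in cartilage, had 4.40e-06 and 0.00631 in the authors' deposited table. Zfp536, which restrains neuronal differentiation, stood near the limit in both, with 0.0298 and 0.0210 in the authors' deposited table. Zfp42, the pluripotency marker Rex1, and the epidermal regulator Zfp750 were in neither list.

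Of 8 other transcription factor genes 7 were control-listed and 4 in the knockout list. Zfp395 and Zfp704, members of 1 small family, were alike, with 7.17e-11 and 8.18e-11 for the control and 0.00417 and 0.00182 in the knockout ChIP of the authors' deposited table. Zfp639 had 1.98e-07 and 1.57e-04 in the authors' deposited table. The paralogues Zfp608 and Zfp609 were unlike, since Zfp609, the cortical progenitor factor, had 0.00137 with control chromatin alone, per the authors' deposited table. Zfp362 and Zfp384 were control-only as well, with 3.69e-06 and 0.0248 in the authors' deposited table.

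Among 5 corepressor or chromatin partners Zfp516 and Zfp462, a protector of heterochromatin in stem cells, were in both lists, and Zfp217, Zfp644 and Zfp318 were in neither. Of 5 promoter-binding factors only Zfp335, needed for neural progenitors and T cells, was listed, at 0.00545 with control chromatin alone, per the authors' deposited table. Zfp143, Zfp148, Zfp281 and Zfp64 were in neither list.

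All 4 KRAB repressors with known targets were in the control list, and 1 was in the knockout list. Of all numbered Zfp genes 39.9% and 23.2% were listed, and of all protein-coding genes 29.0% and 20.9%. The imprint-protecting factors Zfp57 and Zfp445 had 0.0109 and 0.00770 in the control ChIP, per the authors' deposited table. Zfp568, which silences a placental promoter of Igf2, and Zfp809, which silences retroviruses, had 0.00243 and 0.0234 there in the authors' deposited table. Zfp57 alone was in the knockout list, with 0.0145 in the authors' deposited table. All 4 control values were weaker than the control list's median p of 0.00116.

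Of 7 genes for RNA binding, mitosis or ubiquitin-like modification 4 were control-listed and 3 in the knockout list. Zfp207, a spindle assembly factor, had 1.63e-06 and 0.00441 in the authors' deposited table. The RNA-binding protein genes Zfp106 and Zfp346 had 1.30e-04 and 0.0109 for the control and 0.00793 and 0.0366 in the knockout ChIP of the authors' deposited table. The SUMO ligase gene Zfp451 was control-only, with 0.0202 in the authors' deposited table. Zfp91, Zfp622 and Zfp830 were in neither list.

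The genes that KRAB proteins work through were also looked up. Of 21 genes of the KRAB corepressor and heterochromatin machinery 12 (57.1%) were control-listed and 7 (33.3%) in the knockout list, beside 29.0% and 20.9% of all protein-coding genes, and 7 were in neither. This list too was drawn up with earlier results known. Trim28, the corepressor that KRAB domains bind, and Setdb1 were in neither list. The chromatin remodeller genes Chd4 and Chd3 had 2.72e-11 and 1.34e-09 for the control and 0.00150 and 0.0192 in the knockout ChIP of the authors' deposited table. The DNA methyltransferase gene Dnmt3a had 6.45e-10 and 0.00949 in the authors' deposited table. Mphosph8 had 0.00805 and 0.0121 and Morc2a 8.49e-05 and 0.0155 in the authors' deposited table, control first. Cbx5, the gene of heterochromatin protein HP1-alpha, had 1.25e-06 with control chromatin alone, per the authors' deposited table. Atf7ip, Hdac2, Daxx, Atrx, Cbx1 and Tasor were control-only as well, with 1.15e-04, 9.13e-04, 7.27e-04, 0.00166, 0.0128 and 0.0138 in the authors' deposited table. Pphln1 and Smarcad1 were in the knockout list alone, with 0.0476 and 0.0362 in the authors' deposited table. Hdac1, Dnmt1, Dnmt3b, Uhrf1 and Cbx3 were in neither list.

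The numbered Zfp genes fell into 28 tandem runs with 180 genes, and 186 genes stood outside runs. A run is at least 3 numbered Zfp genes with gaps of at most 200 kb. Neighbours with other symbols were not counted, so a gene outside runs need not stand alone. Zfp965 and Zfp973 were outside runs, yet each shared an identical promoter stretch with 24 other genes, most of them not numbered Zfp genes. Zfp600, Zfp808, Zfp980 and Zfp987 were also outside runs and had promoters with such copies. The part of genes of this kind in the run differences was not tested. Genes in runs were listed less often than genes outside them, at 34.4% (62 of 180) against 45.2% (84 of 186) in the control list, a difference of -10.7 percentage points (Newcombe 95% interval -20.4 to -0.686). For the knockout list the shares were 15.6% (28 of 180, 10.6 to 21.7) and 30.6% (57 of 186, 24.1 to 37.8), a difference of -15.1 points (-23.4 to -6.47). The intervals for genes in runs, 27.5 to 41.9 and 10.6 to 21.7, contained the 29.0% and 20.9% of all protein-coding genes. With only p-values under 0.001 the difference was -16.9 points in the control list and -2.49 points (-8.08 to 3.05) in the knockout list, and with run gaps of 100 or 500 kb the control interval included 0. The unique list held 39 of the 180 genes in runs and 41 of the 186 outside.

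The p-values of listed members also differed by position. No control member in a run had a p-value under 8.57e-08, that of Zfp975 in the authors' deposited table, while 11 of the 12 members with a control p under 1e-10 lay outside runs. The other one, Zfp268, lies 45.4 kb from its neighbour Zfp980 and was not placed, since the gene table carries it under another symbol, Gm13212. For the control the median −log10 p was 2.19 for the 62 members in runs and 3.70 for the 83 outside. In the knockout ChIP the medians were 2.35 for 28 members in runs (quartiles 1.91 and 3.83) and 2.10 for 57 outside (1.73 and 3.17). The order of the medians was the other way round there, but the quartile ranges overlapped widely. Zfp997 and Zfp998, which the gene table also carries under other symbols, were not placed and enter neither median. Of the 62 control members in runs 18 (29.0%, 18.2 to 41.9) were also in the knockout list, against 43 of 83 (51.8%, 40.6 to 62.9) outside. Over all control-listed protein-coding genes the share was 45.7%. Among all protein-coding genes it was lower where the control p-value was weaker, and control p-values were weaker in runs. The part of this in the split was not tested.

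**Figure D3:**
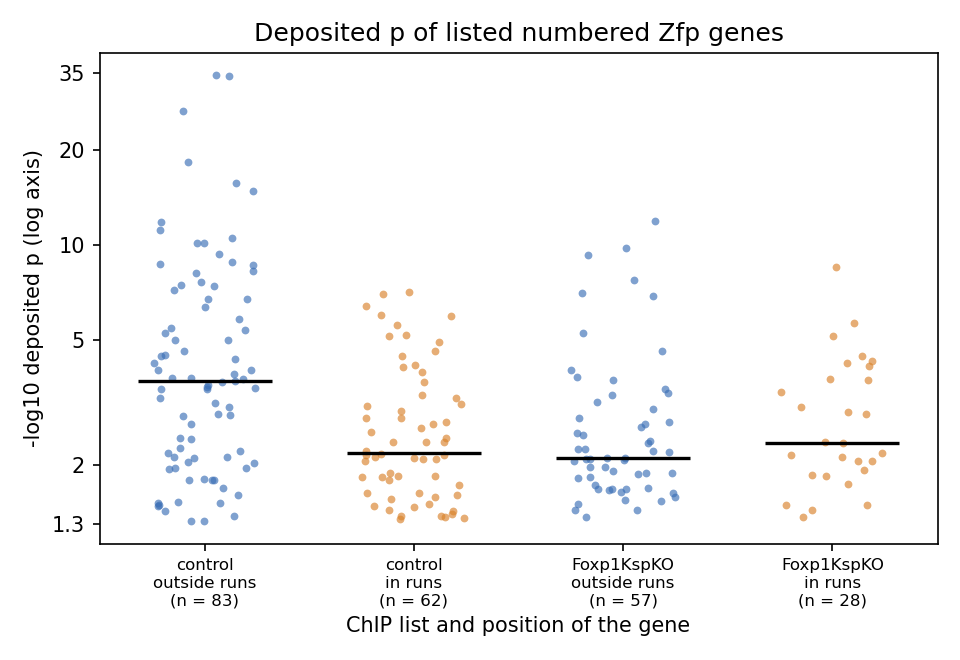
Deposited −log10 p (y axis, log axis) of listed members in each ChIP list, outside and in tandem runs; each point is 1 gene and each bar a median. In the control ChIP members in runs reach 7.07 and those outside 34.4, with medians of 2.19 and 3.70.

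Gene length moved with position, and its part in the difference was not tested beyond 1 length class. Genes in runs had a median length of 15906 bp and those outside 19675 bp. A comparison of promoter composition is void, since fewer than 80% of the genes outside runs had a window. Among genes of 10 to 30 kb alone, the run difference was -5.91 percentage points in the control list (-18.3 to 6.55) and -12.9 points in the knockout list (-23.6 to -2.36). In the control list the share of numbered Zfp genes was 27.8% (16.5 to 41.6) against 23.7% of all protein-coding genes under 10 kb, 38.1% (31.8 to 44.7) against 26.5% from 10 to 30 kb and 53.1% (41.7 to 64.3) against 36.6% from 30 kb up. In the knockout list they were 18.5% against 18.5%, 20.8% against 19.8% and 33.3% (23.2 to 44.7) against 24.2%; the interval of the last begins below 24.2%.

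**Figure D4:**
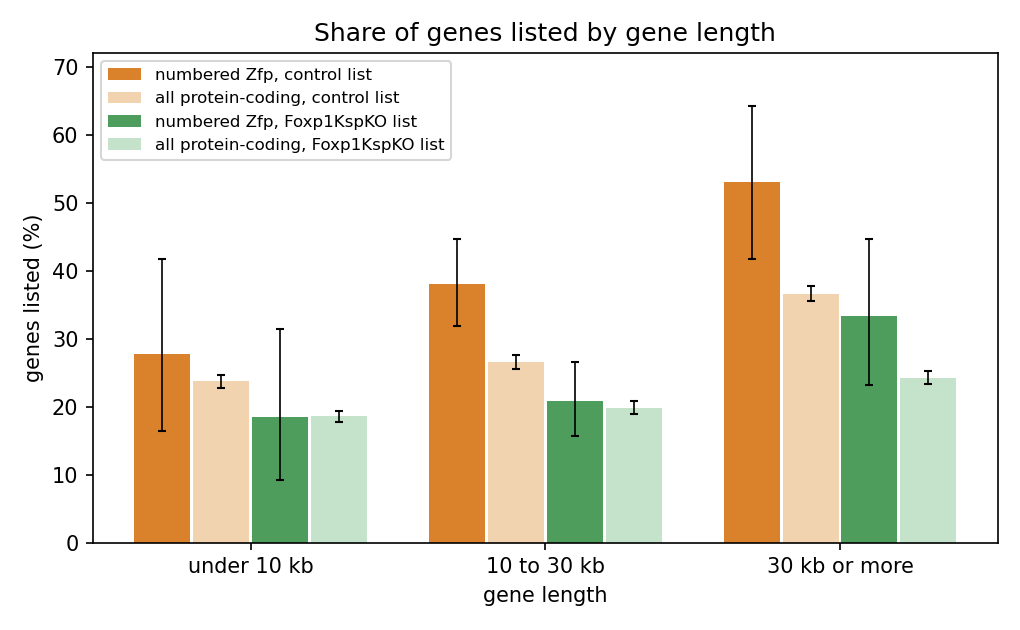
Share of genes listed (y axis, %) by gene length (x axis) for numbered Zfp genes and all protein-coding genes in each ChIP list, with 95% exact binomial intervals. Among genes of 30 kb or more 53.1% of numbered Zfp genes and 36.6% of all protein-coding genes were in the control list.

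The runs differed widely. In 24 of the 28 at least 1 gene was in the control list, in 18 at least 1 was in the knockout list, and 3 runs had none in either. Control genes outnumbered knockout genes in 16 runs, the numbers were equal in 8 runs with a listed gene, and 1 run, on chromosome 5, had more knockout genes. The run with the most listed genes lies on chromosome 17, at chr17:21383707-22456689, where 11 of 18 genes were listed, 9 in the control list and 6 in the knockout list. Its lowest control p-value was that of Zfp946, 1.11e-06 against 0.0140 in the knockout ChIP of the authors' deposited table. Zfp994 had 2.53e-05 and 3.76e-05 and Zfp54 6.98e-05 and 6.03e-05 in the authors' deposited table; these genes are not adjacent in the run. Zfp52, Zfp820, Zfp948, Zfp229 and Zfp995 were control-only, with 6.58e-06, 1.25e-05, 0.00427, 0.0130 and 0.00183 in the authors' deposited table. Zfp51 was in both, with 0.0275 and 0.0145 in the authors' deposited table, and Zfp758 and Zfp947 were in the knockout list alone.

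Of the runs with at least 4 genes, the one at chr7:6131489-6396637 had the highest share listed, 5 of 6 genes. All 5 were in the control list, where the authors' deposited table gave Zfp78 1.03e-06, Zfp787 8.28e-05, Zfp583 0.00428, Zfp444 0.00869 and Zfp667 0.0430. Zfp583 was the one also in the knockout list, with the lower value of 7.40e-06 there in the authors' deposited table. The run with the most genes, 19 on chromosome 13 at chr13:67038594-67827000, had 6 in the control list and 2 in the knockout list.

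**Figure D5:**
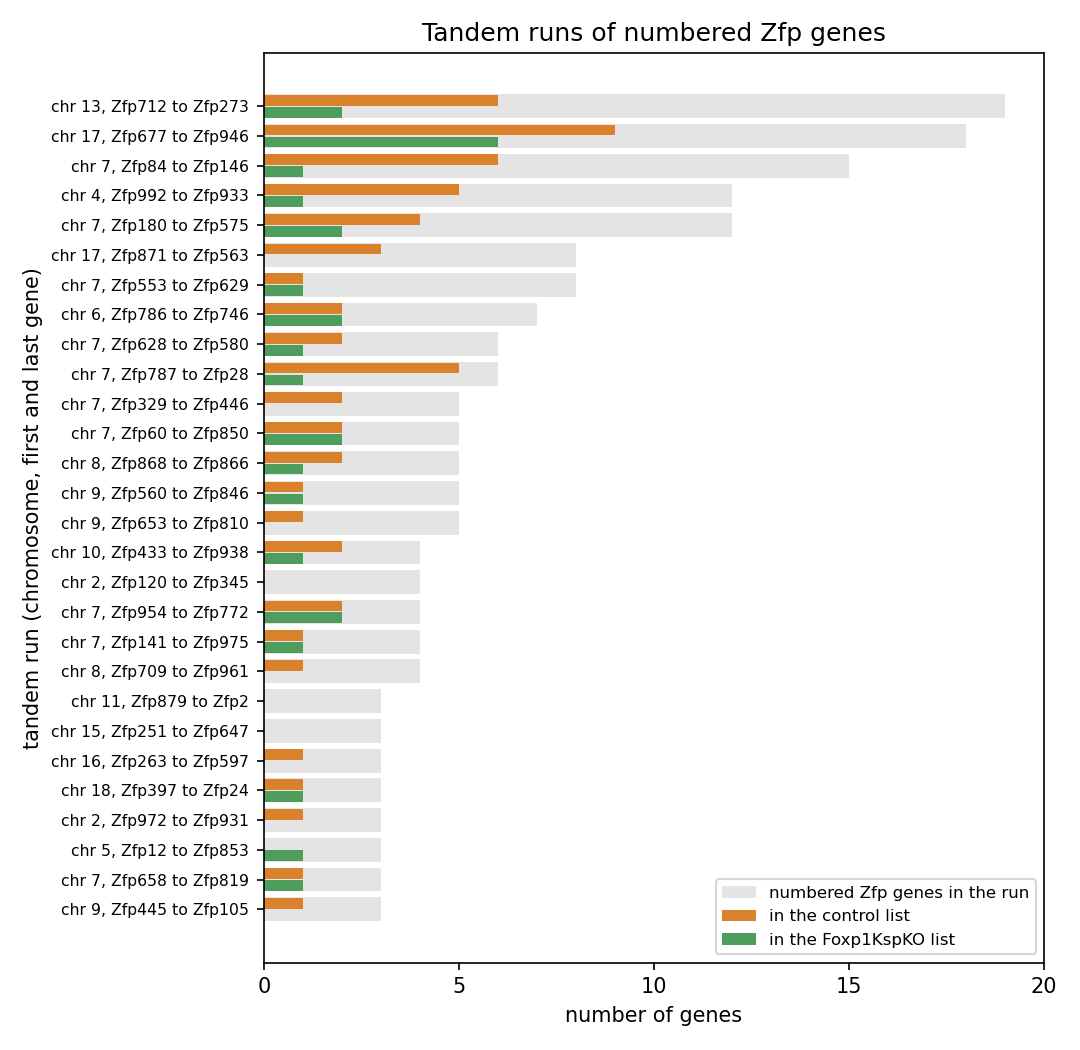
The 28 tandem runs of numbered Zfp genes, with the number of genes in the run (grey), in the control list (orange) and in the knockout list (green) on the x axis. The chromosome 17 run of 18 genes has 9 control and 6 knockout genes, and the chromosome 13 run of 19 genes has 6 and 2.

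The authors' unique list held 80 members by symbol. It held 78 of the 86 control-alone members (90.7%), close to the 90.9% of all control-alone symbols, and 2 members, Zfp467 and Zfp703, that were in both ChIP lists. Its lowest p-values were those of Zfp532, Zfp467, Zfp703, Zfp521 and Zfp710, the last with 7.15e-09 in the authors' deposited table. The 8 control-alone members whose symbols it does not hold were Zfp268, Zfp984, Zfp985, Zfp981, Zfp987 and Zfp982 on chromosome 4, Zfp995 on chromosome 17 and Zfp965 on chromosome 2, named after their values were seen. They were not the weakest, since Zfp268 and Zfp984 had 4.99e-12 and 3.90e-07 in the authors' deposited table. Of these 8, 6 had a promoter with an identical 50-base stretch in another gene's promoter (34.9% to 96.8%), against 4 of the 65 unique control-alone members with a window (6.15%, 1.70 to 15.0). Zfp981 and Zfp984 each shared a stretch with Zfp268, and Zfp985 and Zfp987 shared a stretch with each other. These genes are therefore not independent, which the interval does not take into account. The NCBI number of Zfp965 is in the unique list under another symbol, Gm11007, so by number 7 genes were left out, and 5 of these 7 had such a promoter. That row counts as 1 of the 80 of 366 genes given by number above. Why the list leaves out the 7 is not given in the sources used here.

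A promoter with an identical 50-base stretch elsewhere was found for 21 of the 142 members with a window (14.8%). Zfp965 and Zfp973 on chromosome 2 each shared a 50-base stretch with the promoters of 24 other genes, and Zfp931 with those of 16. Zfp987 and Zfp534 on chromosome 4 had an identical stretch of 91 bases. The only other chromosome 4 pair measured, Zfp268 and Zfp984, had 66. Zfp987 appeared only in the control list, with 0.00768 in the authors' deposited table. Zfp534 was in both lists, with 5.53e-04 and 1.82e-04 in the authors' deposited table. Of the 39 numbered Zfp genes with a copied promoter 35.9% were control-listed and 23.1% in the knockout list. Of the 265 with none 39.2% and 21.9% were.

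Forkhead proteins recognise sequences with the core TGTTTAC, and TATTTGT is a variant bound by Foxp factors. Searched on both strands in the 250-base windows, at least 1 of the motifs was found in 3 of 142 members (2.11%, 0.438 to 6.05), in 5 of 164 numbered Zfp genes in neither list (3.05%) and in 937 of 17492 protein-coding genes (5.36%). Of all protein-coding windows 23 held both. TGTTTAC was in 2.58% and TATTTGT in 2.90% of all protein-coding windows. The 3 members, named after the search, were Zfp551, printed above, Zfp207 and Zfp275. In the window of Zfp551 TGTTTAC starts 103 bases and TATTTGT 216 bases before the annotated start, and the gene had 4.80e-07 with control chromatin alone, per the authors' deposited table. Both motifs of Zfp551 lie within the span of the gene. The region that the authors tested around each gene is not given, and the windows need not be the bound sites.

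Members lay on 20 chromosomes. On chromosome 3, 4 of 5 numbered Zfp genes were in each ChIP list, and on chromosome 14, 3 of 5 were. Of all 983 protein-coding genes of chromosome 3, 315 were control-listed and 220 in the knockout list. Of the 851 on chromosome 14, 219 and 152 were. Chromosomes 10, 12 and 16 also held 5 numbered Zfp genes each, and fewer of these were listed. In the same order 2, 2 and 1 were control-listed and 1, 2 and 0 in the knockout list. Chromosome 18 is described because of its low p-values, a choice made after they were seen. Of its 11 numbered Zfp genes 8 were control-listed and 5 in the knockout list, while 203 and 128 of all its 511 protein-coding genes were. The 8 control values had a median −log10 p of 8.41, ranging from 3.53 to 34.4. The 140 control members on other chromosomes had 2.71 and the 203 listed protein-coding genes of chromosome 18 had 2.99. The 5 knockout values had a median of 8.47, ranging from 1.97 to 9.78. There the 82 members on other chromosomes had 2.20 and the 128 listed protein-coding genes of chromosome 18 had 2.38. Besides Zfp516, Zfp608, Zfp532 and Zfp521, the 8 were Zfp236, Zfp438, Zfp24 and Zfp407. All but Zfp24 are long genes, from 95627 bp for Zfp516 to 381839 bp for Zfp407. The median length of control-listed numbered Zfp genes was 21012 bp, and the part of length in these values was not tested. Zfp24, a regulator of myelination, was stronger in the knockout ChIP, with 3.42e-09 against 7.49e-06 in the control ChIP, per the authors' deposited table. Chromosome 7 held the most numbered Zfp genes, 89, of which 36 (40.4%) were control-listed and 21 (23.6%) in the knockout list. These are near the shares of all numbered Zfp genes, while 28.8% and 22.3% of all protein-coding genes of chromosome 7 were listed. On chromosome 4 the shares were 51.9% and 14.8% of 27 numbered Zfp genes, beside 25.5% and 20.2% of all its protein-coding genes. On chromosome 2 they were 20.8% and 8.33% of 24, beside 27.7% and 19.8%. The X chromosome held 7 numbered Zfp genes, of which 3, Zfp300, Zfp275 and Zfp449, were in both lists. Of all its protein-coding genes 39.1% were control-listed and 21.7% in the knockout list.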

How the data were processed

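Each of 2 ChIP libraries had 1 deposited list of genes, and the last list holds genes that the authors call unique to the control ChIP. The authors deposited 1 p-value per gene, all under 0.05, per the file headers and values; the sources do not name the test, its reference, the region or any adjustment, and the depth is unknown. Per the submitters' processing notes, the tools included Bowtie2, edgeR, Trimmomatic, deepTools and FastQC and the builds were GRCm38 and mm10, without roles or versions. Lists were matched to the control and knockout ChIP by sheet name and sample description.

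Rows were joined by NCBI gene number, keeping the lowest p-value, and by symbol for members of the unique list. Gene coordinates, lengths and promoters come from RefSeq on GRCm38.p6. Of 173 members, 169 were among the 366 protein-coding numbered Zfp genes of that table; 3 have another symbol there and 1 is a pseudogene. Zfp935 of the table is in the control list as Gm49359 and was counted by number. Coordinates are 1-based and describe genes, not bound sites. Many p-values are tied exactly with those of other genes, so ranks within ties are arbitrary. Ties held 60.8% of control members and 51.7% of knockout members, beside 67.2% and 61.0% of all listed genes. Promoter pairs were aligned globally with Biopython 1.88 (match 1, mismatch -1, gap opening -3, gap extension -0.5). Counts, medians and exact Clopper-Pearson intervals, and Newcombe intervals of differences from statsmodels 0.14.6, used Python 3.11.15, pandas 2.3.3 and SciPy 1.17.1, and the counting and motif code was tested on simulated data. Zinc finger counts and protein identity, planned for naming genes, were not computed, since protein sequences were not used here.

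The members and gene lists were chosen with earlier results of these data known. Named were members with the 10 lowest control and 5 lowest knockout p-values, the 5 lowest of the unique list and of the knockout list alone, the role and corepressor lists, and the runs with most and with the highest share of listed genes.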

Additional observations from a re-analysis of the deposited data

How the results depend on the processing

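Of 40 values under other settings 36 stayed within the 95% interval of the reported value. For medians and the ratio the intervals are binomial too. Settings that keep nearly the same genes, such as joining by symbol, could hardly leave these intervals, so the count says little about them. The 4 that moved came from keeping only p-values under 0.001, which leaves fewer genes by construction. There the control list held 19.1% of numbered Zfp genes (14.3% of all protein-coding genes), the knockout list 7.38% (6.62%) and the unique list 7.65%, and the run difference in the knockout list was -2.49 percentage points (-8.08 to 3.05). The control run difference was -16.9 points there. Joining by symbol, leaving out the chromosome 13 run of 19 genes, counting all biotypes, run gaps of 100 or 500 kb and taking control-alone genes from the unique list moved nothing outside the intervals; nor did leaving out copied promoters, genes outside 10 to 30 kb or chromosome 18, which were chosen after seeing the data. With gaps of 100 or 500 kb the interval of the control run difference included 0 (-9.06, -18.8 to 1.01, and -7.98, -18.2 to 2.25), as it did among genes of 10 to 30 kb. Leaving out proteins at least 90% identical was not run. No paired analysis was possible because each group held 1 library. Depth is unknown, so its effect on the lists cannot be given.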
